A study of Mus musculus with 8 samples.

Results

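The comparison reported here set the 2 gastrocnemius libraries titled RP against the 3 titled Normal, which made 5 of the 8 libraries in the series. The libraries were chosen by sample title alone, and the other 3, titled Control, entered the same model and are given beside the results. The gastrocnemius is a calf muscle of mostly fast fibres, and the study concerned cachexia, in which muscle wastes while a tumour grows. Its stated interest was the effect of an extract of the peony Paeonia lactiflora on the muscle's NF-kB pathway and its E3 ubiquitin ligases.

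All mice were C57BL/6 with a listed age of 4 weeks, and no group carried a transgene. By the titles and protocols, Normal mice received 100 µl of saline under the skin and later 200 µl of distilled water by mouth. RP mice received 1000000 Lewis lung carcinoma cells, a transplantable mouse lung tumour line, in the same volume. After 2 weeks of growth the mice were regrouped to match tumour size, and RP mice then took the plant's 30% ethanol extract at 100 mg/kg, suspended in 200 µl of water, each day for 2 weeks. Control mice bore the same tumour and took water. By these labels RP and Normal animals differed in both tumour and extract, whose effects cannot be told apart in this contrast. Whether every library came from an animal of its own is not stated, so the p-values below reflect sample spread only.

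The labels of the Normal libraries conflict. The deposited tables of the 3 libraries titled Normal are named Control1 to Control3, and those of the 3 titled Control are named Normal1 to Normal3. Under the table names the 3 Normal-titled libraries would be untreated tumour bearers, and the contrast would set extract-treated against untreated tumour bearers, with the Control-titled libraries as the mice without a tumour. No file was moved between groups, the RP tables carry the RP name, and each key gene is given in all 8 libraries so that both readings can be followed. No measurement here decides between them.

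As background, wasting muscle is known to raise Trim63 (MuRF1) and Fbxo32 (atrogin-1), ubiquitin ligases that tag muscle proteins for destruction by the proteasome. FoxO transcription factors, glucocorticoids and inflammatory signals through NF-kB and STAT3 are known to act on these genes. Fast fibres depend on glycolysis and on a calcium store in the sarcoplasmic reticulum, and tumours in mice are known to raise circulating neutrophils and to alter red cell production.

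Total counts were 9528011 and 10082410 in RP1 and RP2 and 10357078 to 12333767 in the Normal-titled libraries. Libraries are called Normal, Control and RP by title. Expression is given as CPM, counts scaled to a common library size by TMM, and changes as log2 RP minus Normal. Skeletal muscle genes were high in all 8 libraries: Acta1, the skeletal actin gene, read 17210.5, 22154 and 22111 CPM in Normal1 to Normal3 and 30804 and 30179 CPM in RP1 and RP2. Haemoglobin genes took 4.57, 9.56 and 19.7% of counts in Normal1 to Normal3, 0.862 and 3.83% in RP1 and RP2, and 1.41 to 1.61% in the Control-titled libraries, and the 95% Wilson interval of each share was no wider than 0.0222 percentage points on each side. On the first principal component of log2 CPM, with 39.1% of the variance, RP1 and RP2 lay at 17.9 and 0.0194, between the Normal (-45.8 to -29.7) and Control libraries (29.3 to 34.3). RP2 was thus nearer the Normal-titled libraries than RP1 was, in its haemoglobin share as well as on this axis.

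The promoters of 4 genes that were higher in RP are shown first, since the muscle genes below are known to be read by factors that bind short motifs. Each line gives the RefSeq promoter in build GRCm38.p6 (mm10), 250 bases before to 50 after the annotated start, 5′ to 3′ on the gene's strand. Capitals mark CAGCTG, an E-box bound by myogenic factors, a MEF2 motif in Pgam2, and in Actc1 TATAAA and a CArG box, the serum response factor motif. The TATAAA of Actc1 lies 33 to 38 bases after the annotated start, not before it.
Actc1 (chr2:114052826-114053125, minus strand): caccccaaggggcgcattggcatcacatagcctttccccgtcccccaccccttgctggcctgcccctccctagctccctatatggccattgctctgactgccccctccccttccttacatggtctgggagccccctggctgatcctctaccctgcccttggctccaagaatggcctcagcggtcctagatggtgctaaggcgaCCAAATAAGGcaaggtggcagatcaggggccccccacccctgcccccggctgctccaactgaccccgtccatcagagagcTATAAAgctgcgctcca
Casq1 (chr1:172219846-172220145, minus strand): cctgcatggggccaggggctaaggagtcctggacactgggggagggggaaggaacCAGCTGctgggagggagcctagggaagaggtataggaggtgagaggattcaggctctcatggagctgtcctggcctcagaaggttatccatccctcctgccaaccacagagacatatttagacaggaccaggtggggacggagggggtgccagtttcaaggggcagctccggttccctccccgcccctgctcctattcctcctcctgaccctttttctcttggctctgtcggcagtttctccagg
Sypl2 (chr3:108226550-108226849, minus strand): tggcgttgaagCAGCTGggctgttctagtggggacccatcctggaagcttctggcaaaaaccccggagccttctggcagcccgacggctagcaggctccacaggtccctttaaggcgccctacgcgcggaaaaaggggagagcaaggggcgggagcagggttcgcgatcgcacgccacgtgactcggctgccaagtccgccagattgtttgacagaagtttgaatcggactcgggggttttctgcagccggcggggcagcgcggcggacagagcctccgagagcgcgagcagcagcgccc
Pgam2 (chr11:5803747-5804046, minus strand): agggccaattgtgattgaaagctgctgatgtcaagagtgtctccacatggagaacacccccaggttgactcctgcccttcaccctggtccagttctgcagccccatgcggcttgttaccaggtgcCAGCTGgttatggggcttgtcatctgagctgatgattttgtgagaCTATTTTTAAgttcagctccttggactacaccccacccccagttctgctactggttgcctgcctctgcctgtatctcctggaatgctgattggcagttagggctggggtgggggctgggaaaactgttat

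On both strands, CAGCTG occurred in 16.3% of 32851 promoter windows of this length, the MEF2 motif in 1.86%, the CArG box in 1.63% and TATAAA in 13.6%. Of the 15 fast-fibre and glycolysis genes higher in RP, 13 matched a promoter entry (Gpd1 and Slc2a4 did not). CAGCTG was present for 8 of the 13, against 18.3% of 27025 genes, and the MEF2 motif for 3, against 2.16%. The 8 were Casq1, Eno3, Myl1, Pfkfb1, Pgam2, Phka1, Pkm and Sypl2, and the 3 were Pfkfb1, Pgam2 and Pvalb. CAGCTG also occurs in the promoter window of Trim63, which did not pass against Normal. A match is a description of these letters and was not tested as a binding site. The share among members of the fast-fibre and glycolysis lists that did not pass was not counted. These figures thus do not show that the motifs go with a rise in RP.

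The genes that were higher in the RP-titled libraries included fast-fibre, glycolysis, polyamine and matrix genes. Those that were lower included the atrophy gene Fbxo32, the cell cycle inhibitor Cdkn1a, and antioxidant, neutrophil and red cell genes. Of 13174 genes tested with edgeR's quasi-likelihood test, 330 (2.5%) differed at a Benjamini-Hochberg adjusted p below 0.05. Of these, 220 (1.67% of genes tested) were higher and 110 (0.835%) lower in RP, 200 by at least 2-fold (123 higher and 77 lower). The median log2 change of all genes was -0.037. All 330 had RP values outside the Normal range, as did 4062 genes tested (30.8%), with RP above in 2031 (15.4%) and below in 2031 (15.4%). Since every call met this, a lack of overlap named below for a gene that passed adds nothing to its call. By unadjusted p below 0.05, 2254 genes differed.

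The number of calls depended on single libraries. It was 663, 138 and 582 without Normal1, Normal2 and Normal3, 204, 219 and 198 without Control1, Control2 and Control3, and 57 and 226 without RP1 and RP2. With RP1 or RP2 left out, the spread of the other groups stood in for that of the single RP library that remained. Of 29 gene lists with a call, 20 had none without RP1, 6 without Normal2, 5 without RP2 and 2, 2 and 3 without Control1, Control2 and Control3. Among the higher genes 39 of 220 passed with each library left out in turn, and among the lower genes 7 of 110 did.

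**Figure D1:**
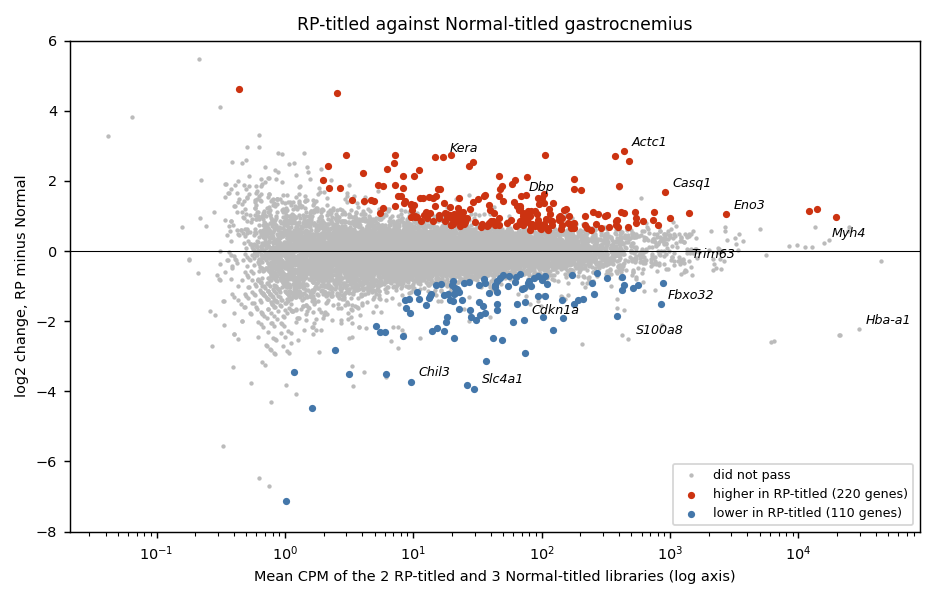
Each point is 1 of 13174 genes, with the mean CPM of the 2 RP-titled and 3 Normal-titled libraries on a log axis and the log2 change, RP minus Normal, on the vertical axis. Red points are the 220 higher and blue points the 110 lower genes, and the haemoglobin gene Hba-a1, at a log2 change of -2.23, did not pass.

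Fast-fibre genes had the larger share of calls among the fibre lists. Of 20 tested members 6 were higher (30%, beside 1.67% of all genes) and 0 lower, with a median log2 change of 0.38. Casq1, the calcium buffer calsequestrin of the fast-fibre store (chr1:172209894-172219895), read 476, 408 and 576 CPM in Normal1 to Normal3 and 1646 and 1456 CPM in RP1 and RP2. Both RP libraries lay well above all 3 Normal-titled ones, and the Control-titled libraries, at 1555, 1647 and 1623 CPM, were at the RP level. Its log2 change was 1.67 (SE 0.171), adjusted p = 0.000316 in edgeR, against -0.052 (adjusted p = 0.959) for RP minus Control.

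Sypl2 (chr3:108210410-108226989), which encodes mitsugumin 29, a membrane protein of the triad where calcium release is triggered, showed the same order. It read 106, 84.2 and 125 CPM in the Normal libraries, 392 and 314 CPM in the RP and 364, 365 and 368 CPM in the Control libraries. RP exceeded Normal without overlap, by a log2 change of 1.75 (SE 0.180), adjusted p = 0.000316 in edgeR. Casq1 overlaps the non-coding gene Gm17224 and Sypl2 overlaps Atxn7l2, and since the strand counted is not stated their counts cannot be fully separated. Casq1 and Sypl2 passed under all 20 alternative settings.

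The other 4 higher members of the list were the fast light chain Myl1, the tropomyosin Tpm1, the calcium buffer parvalbumin Pvalb and the muscle enolase Eno3. Pvalb read 8171, 9151 and 10143 CPM in the Normal libraries and 20208 and 21619.8 CPM in RP, a log2 difference of 1.19 (edgeR adjusted p = 0.00247). Myl1 read 7688, 9139 and 7529 against 17424 and 18745 CPM, a log2 change of 1.16 (adjusted p = 0.00306). Tpm1 read 13829, 14310.1 and 14544 against 29255 and 26516 CPM, a log2 change of 0.97 (adjusted p = 0.00997), and did not pass without RP1 or without RP2. In each of these genes both RP libraries exceeded every Normal-titled library by a wide margin. Part of the 3′ end of Myl1 (19.1% of its 50-base words) occurs in another gene.

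The myosin heavy chain genes did not pass. Myh4, the main fast isoform, read 14457, 11221 and 18740.3 CPM in the Normal libraries and 19727 and 15336 CPM in the RP libraries, so the groups overlapped (log2 change 0.24, edgeR adjusted p = 0.635). Myh1 and Myh2, the other fast isoforms, had log2 changes of 0.0059 and 0.24 (adjusted p = 0.993 and 0.596). Myh7, the slow isoform, had a log2 change of -0.32 (adjusted p = 0.477). The direction of Myh1 turned to -0.26 without RP1. The fast troponin Tnnt3, the calcium pump Atp2a1 and the actinin Actn3 had log2 changes of 0.11, 0.15 and -0.032 and did not pass either (adjusted p = 0.848, 0.755 and 0.969). In bulk tissue, fewer cells of a type and less RNA per cell cannot be told apart, here and in all lists below.

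Among glycolysis and glycogen genes, 10 of 30 tested members were higher in RP (33.3%, beside 1.67% of all genes) and 0 lower. The list's median log2 change was 0.50. Eno3 (chr11:70653125-70662513), which makes phosphoenolpyruvate, read 2011, 1601 and 2122 CPM in the Normal libraries and 4311 and 3651 CPM in the RP libraries. The groups did not overlap, and the Control-titled libraries read 3515, 3634 and 3349.5 CPM. Its log2 change was 1.06 (SE 0.171), adjusted p = 0.00588 in edgeR. It overlaps Pfn1 in the annotation.

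Pgam2, the muscle phosphoglycerate mutase that acts just before enolase, read 817, 843 and 1228 CPM in the Normal-titled libraries and 2068 and 2028 CPM in the RP libraries (log2 change 1.09, adjusted p = 0.00823). Phka1 (chrX:102513975-102644301), a regulatory subunit of the kinase that switches on glycogen breakdown, read 245, 195 and 247 against 478 and 457 CPM, a log2 change of 1.03 (SE 0.157), adjusted p = 0.00405. Gpd1 (chr15:99717587-99725014), which links glycolysis to glycerol phosphate, read 166, 122 and 228 against 399 and 343 CPM (log2 change 1.11, adjusted p = 0.0154). As in every gene that passed, the groups did not overlap in these 3. The others that passed were Pfkfb1 (1.196), Pkm (0.93), Tpi1 (0.89), Phkg1 (0.77), the insulin-responsive glucose transporter Slc2a4 (0.75) and Pgk1 (0.67), all as log2 changes. The 3′ ends of Pgk1 and Pkm share 46.5 and 34.8% of their 50-base words with other genes.

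Several steps of the same pathway did not pass, among them the phosphofructokinase Pfkm (0.57, adjusted p = 0.0876), the glycogen phosphorylase Pygm (0.50, 0.181) and the lactate dehydrogenase Ldha (0.50, 0.205). Hexokinase Hk2 read 753, 679 and 527 CPM in the Normal libraries, 1276 and 833 CPM in the RP and 284, 317 and 314 CPM in the Control libraries. RP lay above both, by a log2 change of 0.69 against Normal (adjusted p = 0.0912) and 1.79 against Control (adjusted p = 0.00173). The count of 10 glycolysis genes fell to 4 without Normal2, to 6 without RP2 and to 0 without RP1, and the count of 6 fast-fibre genes was 4 without RP1 and 8 without Normal3. With only the 2 groups in the model the glycolysis count was 2, and with log2 Hba-a1 as a covariate it was 4, the latter a setting chosen with the data in view.

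**Figure D2:**
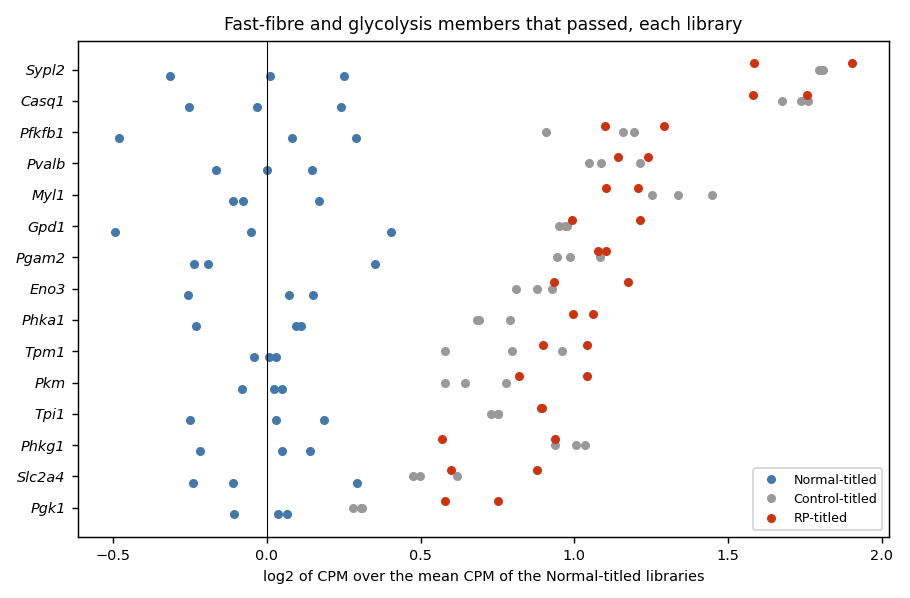
For the 15 fast-fibre and glycolysis genes that passed, each point is 1 library, as log2 of its CPM over the mean CPM of the Normal-titled libraries. In all 15 genes both RP-titled points (red) lie above the 3 Normal-titled points (blue). The Control-titled points (grey) lie near the RP points in Casq1 and Sypl2 but below both in Phka1.

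Of 60 oxidative phosphorylation genes tested, 3 were higher (5%, beside 1.67% of all genes) and 0 lower, with a median log2 change of 0.42. In 58 of the 60 the log2 change was above 0, and in 51 both RP libraries exceeded every Normal-titled one, as in 15.4% of all genes. The 3 were Cox7a1, the muscle isoform of a cytochrome oxidase subunit, Atp5j of the ATP synthase and Cyc1, cytochrome c1. Cox7a1 (chr7:30184171-30186030) read 421, 411 and 364 CPM in the Normal libraries and 710.4 and 816 CPM in RP, a log2 difference of 0.94 (edgeR adjusted p = 0.00649). Atp5j, which overlaps Gabpa, had a log2 change of 0.69 and Cyc1 of 0.72 (adjusted p = 0.0246 and 0.0484). Of 19 citric acid cycle genes 1 was higher (5.26%, beside 2.5% called over all genes), and the list's median was 0.32. This was Idh3a, a subunit of isocitrate dehydrogenase (log2 change 0.67, adjusted p = 0.0373 in edgeR). It was lost without Normal2, RP1, RP2 or any 1 of the Control-titled libraries. The count of 3 ranged from 0 without RP2 to 15 without Normal3, with 11 without Normal1, 2 without Control2 and 1 without Normal2, Control1, Control3 or RP1. It was 23 with DESeq2, 13 at a threshold of 0.1, 7 with limma-voom and 0 with only the 2 groups in the model or with the Hba-a1 covariate.

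Ppargc1a (chr5:51454249-52115853), the PGC-1α coactivator of mitochondrial genes, did not pass against Normal but did against Control. It read 179.9, 209 and 98.7 CPM in the Normal libraries, 328 and 229 CPM in the RP and 38.5, 40.2 and 50.4 CPM in the Control libraries. RP was highest without overlap, by a log2 change of 0.77 against Normal (adjusted p = 0.147) and 2.69 against Control (adjusted p = 0.000774). Among 34 fatty acid oxidation genes 0 were higher and 1 lower (2.94%). This is near the 2.5% called over all genes, so the count is not a result about the list. The 1 was the acyl-CoA thioesterase Acot1 (-2.28, adjusted p = 0.0108 in edgeR), whose 3′ end shares 25% of its 50-base words with Acot2 and other relatives. Acot1 did not pass without RP1, and the list had 4 lower members with DESeq2 and 6 without Normal3 or with no filter on low counts.

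Of 11 polyamine genes tested, 3 were higher and 0 lower, and the count was 3 and 0 under each of the 20 alternative settings. The 3 were 27.3% of the list, beside 2.5% called over all genes. Amd1 (chr10:40287458-40302188) encodes S-adenosylmethionine decarboxylase, which supplies the aminopropyl groups of spermidine and spermine. It read 107, 104 and 138 CPM in Normal1 to Normal3, 712 and 801 CPM in RP1 and RP2 and 909, 668 and 895 CPM in the Control libraries. The RP libraries stood far above the Normal-titled ones and within the Control-titled range, with a log2 change of 2.70 (SE 0.190), adjusted p = 2.37e-05 in edgeR.

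Amd2 (chr10:35708691-35711891) is a near-identical intronless copy, and 82.2% of the 50-base words in the 3′ end of Amd1 occur in Amd2 or in 3 Amd pseudogenes, so the counts of Amd1 and Amd2 cannot be told apart. It read 159, 146 and 179 CPM in the Normal libraries and 838 and 1082 CPM in the RP libraries (log2 change 2.57, adjusted p = 2.37e-05). Smox, the spermine oxidase that turns spermine back to spermidine, read 66.2, 64.1 and 105 against 304 and 349 CPM, a log2 change of 2.06 (adjusted p = 0.000316). Again no value overlapped. Odc1, the first enzyme of the pathway, read 82.9, 86.0 and 119 against 60.2 and 83.9 CPM and overlapped (log2 change -0.41, adjusted p = 0.306), and the synthases Srm and Sms had log2 changes of -0.11 and 0.16 (adjusted p = 0.819 and 0.725).

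Actc1 (chr2:114047282-114052875), the cardiac actin gene that is also expressed in embryonic skeletal muscle, had the largest change among higher genes of at least 5 CPM. It read 158, 149 and 70.7 CPM in the Normal libraries, 1090.2 and 726 CPM in the RP and 1725, 1276 and 1248 CPM in the Control libraries. RP1 and RP2 both lay above the Normal-titled and below the Control-titled range, and the log2 change against Normal was 2.85 (SE 0.299), adjusted p = 0.000316 in edgeR. Of the 21 tested satellite cell and regeneration genes, Actc1 was higher and Myod1, the myogenic regulator, was lower (9.52%, beside 2.5% called over all genes). Myod1 read 23.5, 30.8 and 26.8 CPM in the Normal-titled and 11.0 and 12.8 CPM in the RP libraries (log2 change -1.19, adjusted p = 0.0234 in edgeR). Myod1 did not pass without Normal2, RP1 or RP2. Nrep (chr18:33437019-33464365), a neuronal regeneration protein gene, read 45.1, 33.1 and 18.3 CPM in the Normal libraries and 246 and 184 CPM in RP, a log2 difference of 2.74 (adjusted p = 0.000316). It overlaps the non-coding gene Gm10549.

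Other large increases were in Gm4841 (6.30, 3.45 and 8.06 against 51.3 and 28.7 CPM, log2 change 2.75), an interferon-inducible GTPase-like gene on chromosome 18, and 1500015O10Rik (2.67). Gdap1, a mitochondrial membrane protein gene, and Mettl21e, a muscle methyltransferase gene, rose by log2 changes of 2.75 and 2.51. Their adjusted p in edgeR were 0.000722, 0.00192, 0.0106 and 0.00238, and Gdap1 and Mettl21e did not pass without RP1.

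**Figure D3:**
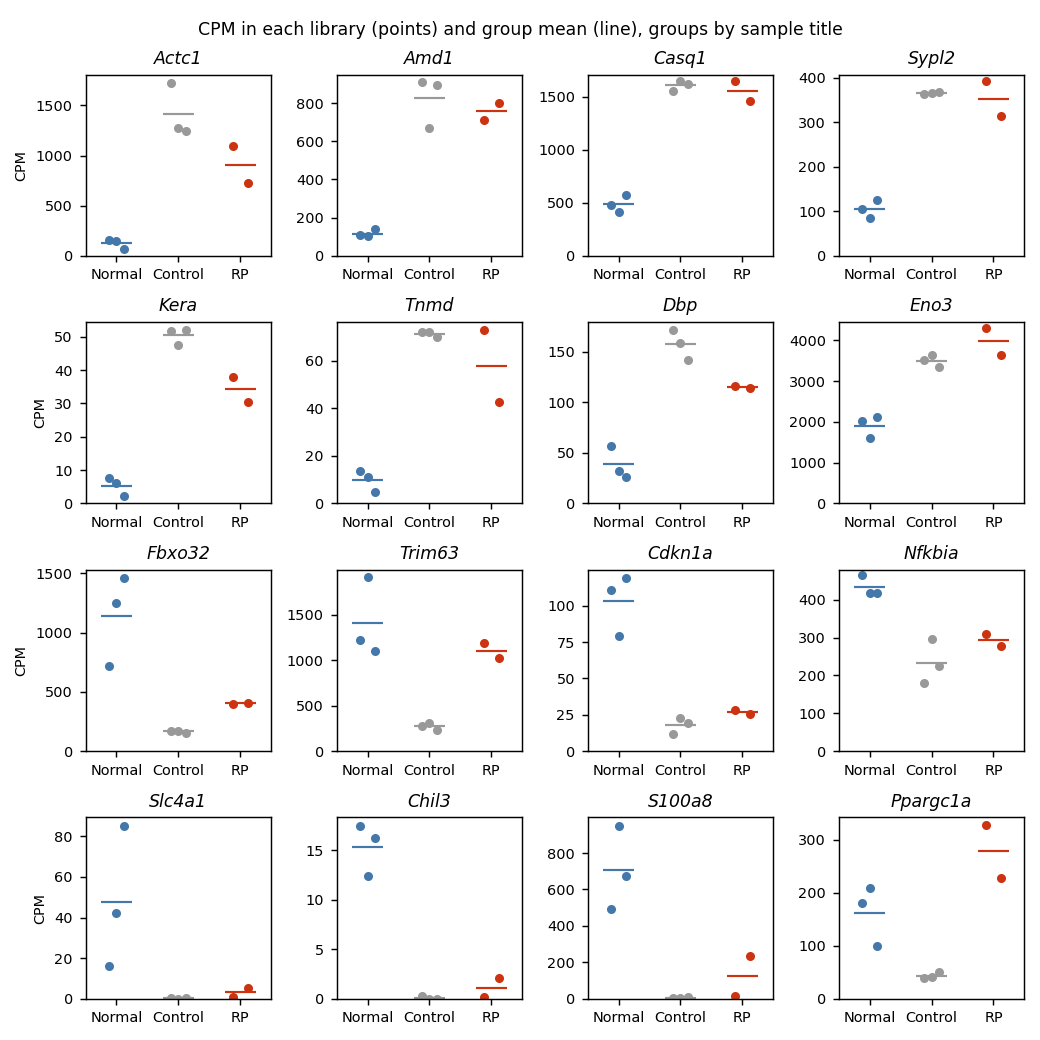
CPM of 16 genes in each library (points) and each titled group's mean (line), with 3 Normal, 3 Control and 2 RP libraries and each vertical axis starting at 0. Actc1, Amd1, Casq1, Sypl2, Kera, Tnmd, Dbp and Eno3 are higher in RP than in Normal, Fbxo32, Cdkn1a, Slc4a1 and Chil3 are lower, and Trim63, Nfkbia, S100a8 and Ppargc1a did not pass.

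Some tendon and matrix genes were higher in RP. Of 23 fibro-adipogenic progenitor and tenocyte markers tested, 6 were higher and 0 lower (26.1%, beside 2.5% called over all genes). The list's median log2 change was 0.32. Kera (chr10:97606962-97613688), the proteoglycan keratocan, read 7.65, 6.13 and 2.23 CPM in the Normal libraries, 37.9 and 30.5 CPM in the RP and 51.7, 47.6 and 51.9 CPM in the Control libraries (log2 change 2.67, SE 0.315, adjusted p = 0.000697 in edgeR). Tnmd (chrX:133851008-133865577), the tendon glycoprotein tenomodulin, read 13.8, 11.1 and 4.66 CPM in the Normal libraries and 72.7 and 42.6 CPM in RP, a log2 difference of 2.54 (SE 0.322), adjusted p = 0.00129. In both genes Normal3 was lowest and the groups did not overlap. The remaining 4 were Cilp2 (1.85), Dpt (0.99), Lum (0.78) and Smoc2 (0.67), with adjusted p from 0.0281 to 0.0434, and none of these 4 passed without Normal2 or without RP1. The count of 6 was 10 without Normal1, 2 without Normal2, Control1, Control3 or RP1, and 3 without Control2 or RP2. Scx, the transcription factor of tendon cells, was at 10.9, 28.4 and 39.1 against 22.7 and 21.6 CPM and overlapped (log2 change -0.24).

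Of 43 collagen and matrix genes, 6 were higher and 1 lower (16.3%, beside 2.5% called over all genes). The list's median log2 change was 0.29. Col6a2 (chr10:76595756-76623630) and Col6a1 (chr10:76708792-76726044), chains of the microfibril collagen VI that surrounds fibres, had log2 changes of 2.13 and 1.57 (adjusted p = 0.00418 and 0.00289). Col6a2 read 21.0, 28.7 and 9.32 CPM in the Normal libraries and 98.9 and 74.0 CPM in the RP libraries. Col3a1 (chr1:45311538-45349706), of fibrillar collagen III, read 228, 294 and 63.3 against 682 and 725 CPM, with the Control-titled libraries higher still at 1514, 1266 and 1435 CPM. Its log2 change was 1.85 (SE 0.406), adjusted p = 0.0299, and Col5a1 and Col5a3 had log2 changes of 1.56 and 1.41.

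Col1a1, of collagen I, read 390.0, 179 and 31.4 CPM in the Normal libraries and 909 and 476 CPM in the RP libraries and did not pass (log2 change 1.79, adjusted p = 0.147). Its 3 Normal-titled values were far apart. The matrix gene that was lower was Thbs1 (chr2:118111876-118127133), thrombospondin 1, which platelets also hold, at 139, 52.4 and 27.8 against 9.16 and 15.9 CPM (log2 change -2.54, adjusted p = 0.0244). As a level over its members (the mean log2 CPM, centred on the 8 libraries), the matrix list stood at 0.21, -0.18 and -1.23 in Normal1 to Normal3 and at 0.078 and -0.087 in RP1 and RP2. Normal1 was thus above both RP libraries and the list levels overlapped. The count of 6 higher was 16 without Normal1, 9 without Normal3, 4 without Control1, Control3 or RP2, and 0 without RP1, and with log2 Hba-a1 as a covariate it was 0. Without Normal3, 7 members were lower.

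**Figure D4:**
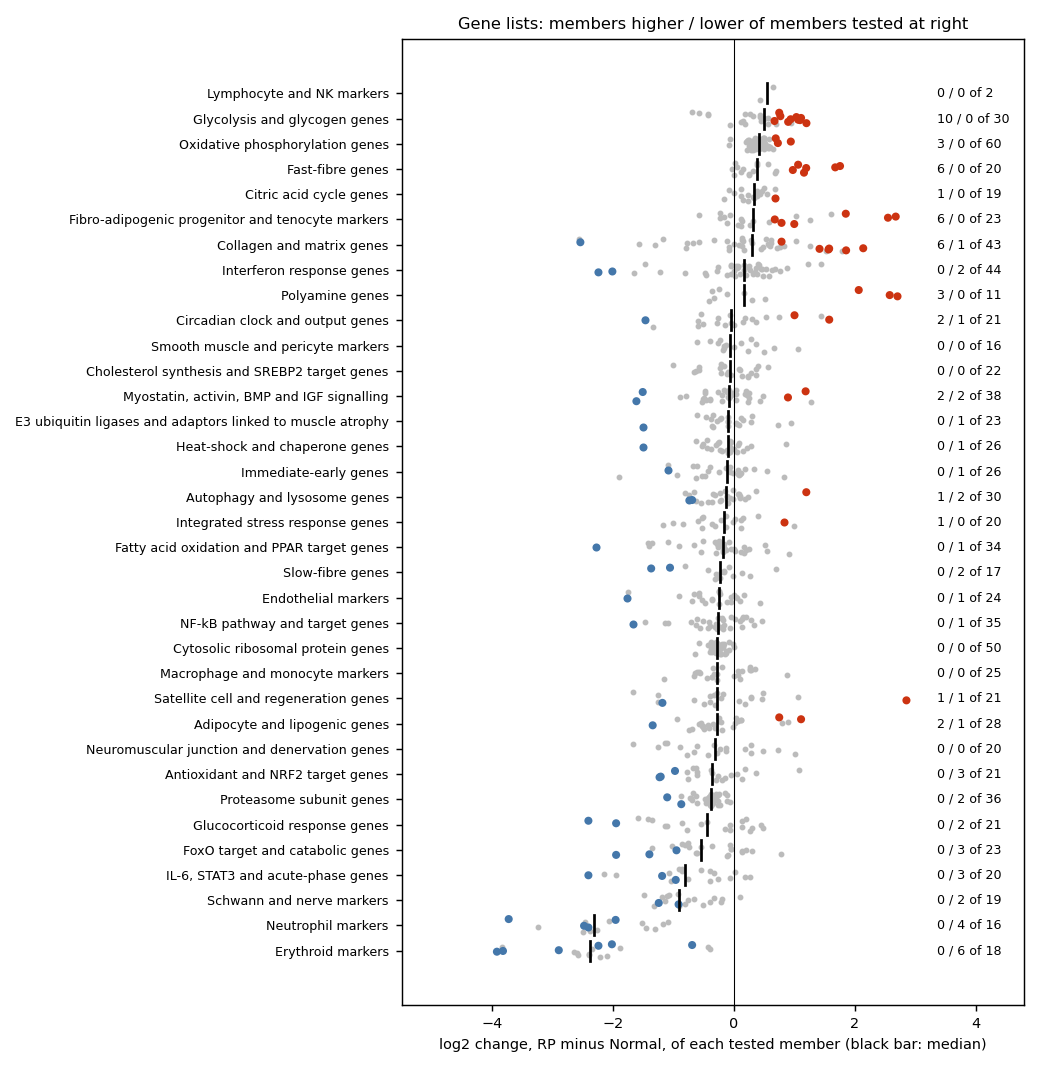
Each row is 1 of 35 gene lists, each point 1 tested member's log2 change, RP minus Normal, and the black bar the median, with the members higher and lower of those tested at the right. Red points passed upwards, blue points passed downwards and grey points did not pass. The glycolysis, fast-fibre and tenocyte lists hold red and no blue points. So do the oxidative phosphorylation, citric acid cycle, polyamine and integrated stress response lists. The neutrophil and erythroid lists lie farthest to the left.

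Of 23 atrophy-linked E3 ligase genes, 0 were higher and 1 lower in RP (4.35%, beside 2.5% called over all genes), with a median log2 change of -0.11. The 1 was Fbxo32 (chr15:58175879-58214892), the F-box adaptor atrogin-1. It read 719, 1248 and 1463 CPM in Normal1 to Normal3, 399.9 and 404 CPM in RP1 and RP2 and 174, 172 and 151 CPM in Control1 to Control3. The RP libraries were close to each other and lay between the other groups without overlap. The log2 change was -1.51 (SE 0.250), adjusted p = 0.00658 in edgeR, against Normal, and 1.28 (adjusted p = 0.0512) against Control. Without RP1 and without RP2 it did not pass (highest adjusted p = 0.119), nor with the Hba-a1 covariate (0.148), the highest of its alternatives. Without Normal3 the list had 2 lower members. Fbxo32 overlaps the non-coding gene Gm36112.

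Trim63 (chr4:134315120-134329629), the RING ligase MuRF1, did not follow Fbxo32. It read 1222, 1912 and 1098 CPM in the Normal libraries, 1188 and 1021 CPM in the RP and 278, 308 and 237 CPM in the Control libraries. RP overlapped Normal (log2 change -0.35, SE 0.226, adjusted p = 0.467) and exceeded Control without overlap (2.01, adjusted p = 0.00173). Fbxo30, the ligase MUSA1, had a log2 change of -0.11 (adjusted p = 0.861).

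FoxO target and catabolic genes included 0 higher and 3 lower of 23 (13%, beside 2.5% called over all genes). The list's median log2 change was -0.54. Cdkn1a (chr17:29090979-29100722), the cell cycle inhibitor p21, read 111, 79.5 and 119 CPM in the Normal libraries, 28.1 and 25.2 CPM in the RP and 12.1, 22.8 and 19.6 CPM in the Control libraries. RP lay below Normal without overlap, by a log2 change of -1.95 (SE 0.256), adjusted p = 0.00143 in edgeR, and passed under all 20 alternatives. Eif4ebp1 (chr8:27260327-27275656), a brake on cap-dependent translation, read 166, 308 and 287 against 99.5 and 92.5 CPM (log2 change -1.40, adjusted p = 0.00692) and did not pass without RP1 or without RP2. Sesn1, a sestrin, had a log2 change of -0.95 (adjusted p = 0.0485), and Foxo1 itself one of -0.11 (adjusted p = 0.850), which turned to 0.087 without Normal3. The glucocorticoid response list had 0 higher and 2 lower of 21 (9.52%, beside 2.5% called over all genes), Cdkn1a and Lcn2. Its median was -0.44. Without Normal3 the FoxO and glucocorticoid lists had 6 and 5 lower members, and without RP1 each had 1.

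All 36 proteasome subunit genes tested had a log2 change below 0, with a median of -0.39, and in 21 both RP libraries lay below every Normal-titled one, as in 15.4% of all genes. The test called 2 (5.56%, beside 0.835% of all genes). Psmd4 (chr3:95032688-95042614), the ubiquitin receptor of the cap, read 323, 661 and 624 CPM in the Normal libraries and 243 and 254 CPM in the RP libraries (log2 change -1.11, adjusted p = 0.0416 in edgeR). Psma5 (chr3:108256926-108279952), a core ring subunit, read 74.6, 88.9 and 64.1 against 33.4 and 49.4 CPM (log2 change -0.87, adjusted p = 0.0366). The count of 2 was 15 without Normal1, 7 with DESeq2 or with no filter, 1 without RP2, and 0 without Normal2, RP1 or any 1 of the Control-titled libraries. Summed over the list, Normal1 held 6689 CPM, Normal2 9892 and Normal3 8660 against 5906 and 6108 in RP. The 50 cytosolic ribosomal protein genes were also all below 0, with a median of -0.28 and 0 calls, and RP lay below every Normal-titled library in 5 of them, a smaller share than over all genes.

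Among 30 autophagy and lysosome genes, 1 was higher and 2 lower (10%, beside 2.5% called over all genes). Trp53inp2 (chr2:155381811-155389847), which promotes autophagosome formation, read 108, 88.4 and 111 CPM in the Normal libraries and 235 and 233 CPM in the RP libraries, with no overlap, and its log2 change was 1.19 (SE 0.154), adjusted p = 0.00130. Bnip3 and Bnip3l, receptors for the removal of mitochondria, had log2 changes of -0.74 and -0.69 (adjusted p = 0.0453 and 0.0456), and each was lost without any 1 library other than Normal1. Fam134b, a receptor for the removal of endoplasmic reticulum, read 1752, 1357 and 1150.3 CPM in the Normal libraries, 996 and 797 CPM in the RP and 214, 224 and 206 CPM in the Control libraries. RP lay between the groups, with adjusted p = 0.0912 against Normal (log2 change -0.66) and 0.000383 against Control (2.06).

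The NF-kB list, the study's stated interest, had 0 higher and 1 lower of 35 tested members, with a median log2 change of -0.26. That share, 2.86%, is near the 2.5% called over all genes, so the count is not a result about the list. Its 1 call was Tnfrsf12a (chr17:23675445-23677449), the TWEAK receptor Fn14, at 46.2, 43.0 and 25.04 CPM in the Normal libraries, 8.73 and 15.01 CPM in the RP and 5.91, 7.10 and 5.33 CPM in the Control libraries. RP lay below Normal without overlap (log2 change -1.68, SE 0.294, adjusted p = 0.00920 in edgeR), though not without RP1. It overlaps Hcfc1r1. Nfkbia, the inhibitor IkBα and itself an NF-kB target, read 465, 419 and 417 against 309 and 278 CPM and did not pass although the groups did not overlap (log2 change -0.56, adjusted p = 0.155). The subunit genes Nfkb1 and Rela and the kinase gene Ikbkb had log2 changes of -0.28, -0.061 and 0.33 (adjusted p = 0.539, 0.893 and 0.497). The count of 1 was 2 without Normal3, 3 without RP2 and 0 without RP1.

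IL-6, STAT3 and acute-phase genes had 0 higher and 3 lower of 20 (15%, beside 2.5% called over all genes), with a median of -0.82. These were Lcn2, which neutrophils also express, the kinase gene Pim1 (-1.19, adjusted p = 0.0361) and the receptor gene Il6ra (-0.97, adjusted p = 0.0469). Pim1 read 44.4, 43.0 and 64.2 CPM in the Normal libraries and 20.2 and 24.1 CPM in the RP libraries. Of 26 immediate-early genes 1 was lower (3.85%, beside 2.5% called over all genes), Ier3 (-1.09, adjusted p = 0.00685 in edgeR). Interferon response genes had 0 higher and 2 lower of 44 (4.55%, beside 2.5% called over all genes), with a median of 0.16. Rsad2, viperin, read 51.3, 68.9 and 138 CPM in the Normal and 14.4 and 28.1 CPM in the RP libraries (log2 change -2.01, adjusted p = 0.0130 in edgeR). Isg20 (-2.24, adjusted p = 0.0328), also listed as an erythroid gene, was the other. The count of 3 in the first of these lists was 0 without RP1, 1 without Normal2 or Control3, 7 with DESeq2 and 9 with no filter on low counts. Without RP1 the immediate-early and interferon lists had 0 calls as well. The metallothioneins Mt1 and Mt2, induced by glucocorticoids and metals, had log2 changes of -1.11 and -1.15 against Normal (adjusted p = 0.0520 and 0.0951) and 1.84 and 2.26 against Control (adjusted p = 0.0146 and 0.0156).

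Of 17 slow-fibre genes 0 were higher and 2 lower (11.8%, beside 2.5% called over all genes), with a median of -0.24. The 2 were Csrp3 and Ankrd2, which are known as stretch-responsive genes of the sarcomere as well as slow-fibre genes. Csrp3 read 339, 331 and 167 CPM in the Normal libraries and 97.7 and 118 CPM in the RP libraries (log2 change -1.37, adjusted p = 0.0280 in edgeR), and Ankrd2 822, 662 and 479 against 303 and 325 CPM (-1.06, adjusted p = 0.0198). Hspb7, a muscle small heat-shock protein, was the 1 lower of 26 chaperone genes (284, 253 and 185 against 74.8 and 94.3 CPM, log2 change -1.51, adjusted p = 0.00485 in edgeR). That was 3.85% of the chaperone list, beside 2.5% called over all genes. Groups did not overlap in any of the 3. Of 21 antioxidant genes 0 were higher and 3 lower (14.3%, beside 2.5% called over all genes), with a median of -0.37. The 3 were Gclm of glutathione synthesis (-1.23), the glutathione reductase Gsr (-1.21) and the secreted peroxidase Gpx3 (-0.98). Their adjusted p in edgeR were 0.0142, 0.0217 and 0.0221. These counts were 0 without RP1 for each of these 3 lists, and 0 without Normal2 for the slow-fibre and antioxidant lists, while 7 antioxidant genes were lower without Normal1.

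Of 21 circadian genes 2 were higher and 1 lower (14.3%, beside 2.5% called over all genes). Dbp (chr7:45705100-45710203), a clock output factor, read 57.2, 32.2 and 26.4 CPM in the Normal libraries, 116 and 114 CPM in the RP and 172, 159 and 142 CPM in the Control libraries, with no overlap between RP and either group. Its log2 change was 1.57 (SE 0.252), adjusted p = 0.00547. It overlaps Sphk2, which was higher too (1.14, adjusted p = 0.00485), so the reads of the pair cannot be told apart. Usp2, a deubiquitinase under clock control, had a log2 change of 1.00 (adjusted p = 0.00658). The clock genes Per1 and Arntl had log2 changes of -0.16 and -1.34 and did not pass (adjusted p = 0.770 and 0.0768). Without RP1 the list had 0 calls, with adjusted p = 0.0643 for Dbp and 0.103 for Usp2, and DESeq2 called 4 higher and 3 lower. The time of dissection was not given in the sources used here, and its part was not tested.

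The myostatin, activin, BMP and IGF list had 2 higher and 2 lower of 38 (10.5%, beside 2.5% called over all genes). Its median was -0.08. The binding protein Igfbp5 read 141, 95.3 and 62.7 CPM in the Normal libraries and 242 and 209.9 CPM in the RP libraries (log2 change 1.18, adjusted p = 0.0246), whereas Igfbp3 read 61.7, 55.1 and 64.5 against 15.7 and 26.6 CPM (-1.51, adjusted p = 0.00302). Neither overlapped. The transducer Smad3 was higher (0.89) and the activin subunit Inhbb lower (-1.62), at adjusted p = 0.0299 and 0.0492. The list had 0 calls without RP1, and 0 higher members without Normal2, Control3 or RP2. Igfbp3 was lost without RP1 alone among the leave-outs, Igfbp5 without 4 of the 8 libraries and Smad3 and Inhbb each without 6. Mstn, myostatin, the inhibitor of muscle growth, read 45.3, 48.7 and 44.2 against 27.2 and 36.9 CPM and did not pass (log2 change -0.52, adjusted p = 0.126). Of 20 integrated stress response genes 1 was higher (5%, beside 2.5% called over all genes), Nupr1 (0.83, adjusted p = 0.0198 in edgeR). Nupr1 did not pass without RP1, with only the 2 groups, with a replicate block, against a fold of 1.5 or with the Hba-a1 covariate. With the replicate block the list had 0 higher and 1 lower.

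Several blood cell genes were lower in RP. Of 16 neutrophil markers tested, of 20 listed, 0 were higher and 4 lower (25%, beside 2.5% called over all genes). All 16 were below 0, with a median log2 change of -2.32. Members near 0 counts in the RP and Control libraries, such as Chil3, could pass the low-count filter only through the Normal-titled libraries. The shared direction and the median are thus partly set by the filter. Chil3 (chr3:106147554-106167564), the chitinase-like protein Ym1, read 17.5, 12.4 and 16.2 CPM in the Normal libraries and 0.216 and 2.06 CPM in the RP libraries, the latter from 2 and 20 counts. No value overlapped (log2 change -3.73, SE 0.591, adjusted p = 0.00491 in edgeR). Retnlg and Lcn2, which neutrophils express, had log2 changes of -2.48 and -2.41 (adjusted p = 0.00885 and 0.00692), and Wfdc21 one of -1.96 (adjusted p = 0.0422).

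S100a8 (chr3:90669071-90670034), a calprotectin subunit abundant in neutrophils, read 492, 948 and 676 CPM in the Normal libraries, 15.4 and 233 CPM in the RP and 2.82, 5.0 and 8.23 CPM in the Control libraries. The RP libraries lay below Normal but far apart from each other, and the change did not pass (log2 change -2.51, SE 0.750, adjusted p = 0.0983). S100a9, its partner, read 14.1 and 225 CPM in RP1 and RP2 (log2 change -2.39, adjusted p = 0.117). Summed over tested members, the neutrophil list held 1027, 2093 and 1526 CPM in Normal1 to Normal3 and 47.7 and 544.8 CPM in RP1 and RP2, against 25.9 to 48.3 CPM in the Control libraries. In RP1 the tested members Ngp, Ltf, Prtn3 and BC100530 were at 0 counts. The count of 4 was 1 without RP1 and 10 without RP2.

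Erythroid markers, 18 tested of 22 listed, had 0 higher and 6 lower (33.3%, beside 2.5% called over all genes). All 18 were below 0, with a median of -2.38. The same limit of the filter holds for members at low counts outside the Normal-titled libraries. Slc4a1 (chr11:102348820-102365281), the band 3 anion exchanger, read 15.9, 42.1 and 85.0 CPM in Normal1 to Normal3 and 0.754 and 5.45 CPM in RP1 and RP2 (log2 change -3.92, SE 0.736, adjusted p = 0.0133 in edgeR). The groups did not overlap, and Normal1 was the lowest of its group. Ube2l6 (-2.02), Isg20 and Bnip3l passed as well. Hba-a1 read 14878, 32811 and 81503 CPM in the Normal libraries and 3741 and 14677 CPM in the RP libraries. Its groups did not overlap, by a narrow margin, and it did not pass (log2 change -2.23, adjusted p = 0.0830 in edgeR). The count of 6 was 15 without Normal1, 1 without Normal2, 3 without any 1 Control-titled library, 0 without RP1 and 11 without RP2.

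Blood transcripts moved with the groups, and the test was repeated under 2 settings chosen with the data in view. Since Hba-a1 moved with the groups, its covariate cannot separate blood content from group. A call kept or lost with it decides nothing about blood. With haemoglobin genes and the ribosomal precursor Rn45s removed, 338 genes passed (238 higher and 100 lower). With log2 Hba-a1 as a covariate 104 passed (75 higher and 29 lower), and 75 of these were among the 330. Casq1, Sypl2, Amd1, Amd2, Actc1, Kera, Tnmd, Trp53inp2, Cdkn1a and Chil3 passed under both, and Fbxo32, Eif4ebp1 and Slc4a1 did not pass with the covariate.

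**Figure D5:**
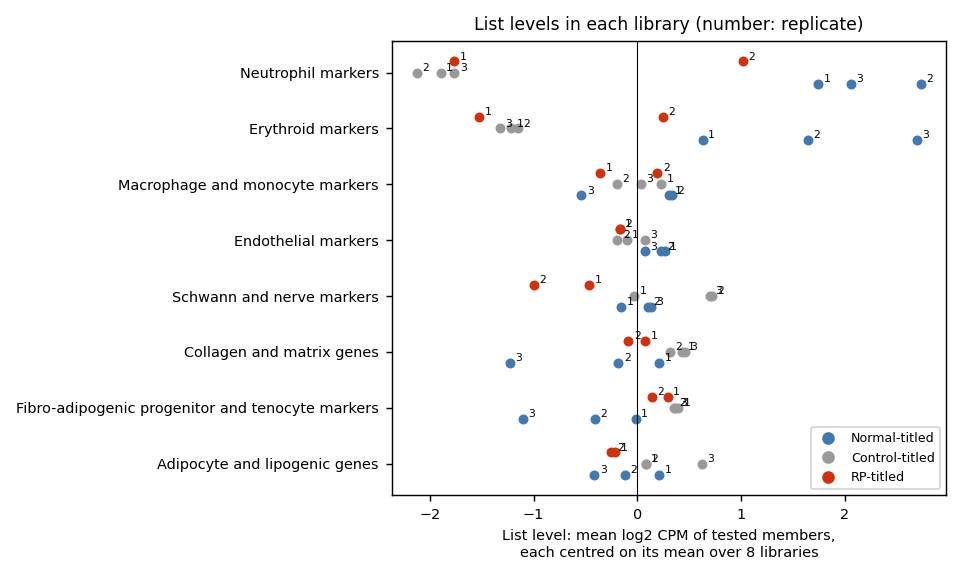
Each point is 1 library's level of a marker list, the mean log2 CPM of tested members centred on their mean over the 8 libraries, and the small number is the replicate. In the neutrophil and erythroid rows RP1 lies among or below the Control-titled libraries and RP2 at 1.02 and 0.24, nearer the Normal-titled ones, and Normal3 is lowest of its group in the collagen and tenocyte rows.

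Markers of other cell types gave few calls. Schwann and nerve markers had 0 higher and 2 lower of 19 (10.5%, beside 2.5% called over all genes) and a median of -0.92. Mal, among the lower genes, read 19.5, 24.2 and 23.9 CPM in the Normal libraries and 10.6 and 8.43 CPM in the RP libraries (log2 change -1.25, adjusted p = 0.0325). It was lower than in the Control-titled libraries too (-1.67, adjusted p = 0.0375). The level of the list was -0.46 and -1.0 in RP1 and RP2, below the -0.15 to 0.13 of the Normal-titled libraries, and its part in the other results was not tested. Of 24 endothelial markers 1 was lower (4.17%, beside 2.5% called over all genes), the tight junction gene Cldn5 (-1.78, adjusted p = 0.0154 in edgeR). Of 28 adipocyte and lipogenic genes 10.7% passed, beside 2.5% called over all genes. Gpd1 and Slc2a4, which muscle also expresses, were higher. Pparg was lower, at 19.3, 18.7 and 14.6 CPM in the Normal and 6.47 and 7.30 CPM in the RP libraries (log2 change -1.35, adjusted p = 0.0281 in edgeR). Without RP1 the Schwann, endothelial and adipocyte lists had 0 calls, and without Normal2 the Schwann and adipocyte lists had 0.

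No member passed in the lists of macrophage (25 tested), smooth muscle (16), neuromuscular junction (20), cholesterol synthesis (22) or lymphocyte genes (2 tested of 24 listed) in edgeR. At an unadjusted p below 0.05 these held 3, 2, 8, 2 and 0 genes. DESeq2 called 0, 0, 3, 0 and 0 of their members.

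Outside the lists, the largest falls among genes of at least 5 CPM included Gm5483, a stefin family gene (-3.49), and Apol11b, an apolipoprotein L gene (-3.13), with adjusted p = 0.00619 and 0.0447 in edgeR. Apol11b passed under 8 of 20 alternatives and was lost without any 1 of 6 libraries, and Gm5483 was lost without RP1. Acer2, an alkaline ceramidase gene, read 24.0, 28.2 and 41.2 CPM in the Normal libraries and 3.34 and 7.71 CPM in the RP libraries (log2 change -2.49, adjusted p = 0.00342). Gm5483 and Apol11b were higher in Normal3, which had the most haemoglobin, than in Normal1 (5.85, 10.1 and 12.7 and 17.8, 44.2 and 108 CPM over Normal1 to Normal3).

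Against the Control-titled libraries, which share these RP libraries and so give no independent test, 23 of 13174 genes (0.175%) passed in edgeR, 19 higher and 4 lower in RP. Nr4a3, an orphan nuclear receptor induced by exercise, read 0.705, 3.90 and 3.98 CPM in the Control libraries, 111 and 82.5 CPM in the RP and 93.8, 61.8 and 42.5 CPM in the Normal-titled libraries (log2 change 5.09 against Control, adjusted p = 0.000383, and 0.55 against Normal, adjusted p = 0.488). Trim63, Hk2, Ppargc1a, Fam134b, Mt1, Mt2, S100a8 and S100a9 were also among the 19, and Mal among the 4. By table name this second contrast would be the one against mice without a tumour.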

How the data were processed

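Messenger RNA of the gastrocnemius was measured in 8 QuantSeq 3′ libraries (Lexogen), each from 500 ng of RNA, per the labels' protocols. The deposited tables give raw read counts by gene symbol, 1 table per library. Build mm10, Bowtie2 and edgeR are named, with no version, per the submitters' processing notes. The counting tool, strand and annotation were not given in the sources used here.

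Groups followed sample titles. Of 23282 rows per file, 13174 passed filterByExpr. Tests used edgeR 4.0.16 (R 4.3.3): a quasi-likelihood fit of all 8 libraries with TMM scaling and a common BCV of 0.195, 2-sided, adjusted by Benjamini-Hochberg over 13174 genes, with a threshold of 0.05. The test was also run on counts simulated from its own fitted model. These held no effects of single libraries, so they do not show how far the calls above can be relied on. Symbols were matched to RefSeq GRCm38.p6 (12546 directly, 590 by synonym, 38 unmatched). Haemoglobin intervals cover counting error only.

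The members and the 35 lists were chosen with earlier results of these data known, and the lists were given no test. Named genes were up to 10 in each direction with the largest change (mean CPM of at least 5, no overlap), up to 2 called members per list, and 30 fixed genes. Any other gene was chosen after its values were seen, and some genes counted in the lists are not reported here by name. Alternatives were RLE and upper-quartile scaling, no filter, a CPM minimum of 5, DESeq2 1.42.0, limma 3.58.1 (voom), only the 2 groups, a replicate block, a threshold of 0.1, a fold of 1.5 and single-library leave-outs. A covariate of log2 Hba-a1, and the exclusion of haemoglobin genes with Rn45s, were chosen with the data in view.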

Additional observations from a re-analysis of the deposited data

How the results depend on the processing

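The 330 genes that differed (220 higher, 110 lower, and 23 against Control) became 718 (398 and 320, and 204) with no filter on low counts, 676 (422 and 254, and 112) with DESeq2, 101 (76 and 25, and 119) with only the 2 groups compared, 710 (434 and 276, and 51) at a threshold of 0.1 and 60 (44 and 16, and 7) against a fold of 1.5. With log2 Hba-a1 as a covariate they were 104 (75 and 29). The count against Control alone also moved with a mean CPM of at least 5 (11) and with limma-voom (10). RLE scaling, upper-quartile scaling and removal of haemoglobin genes and Rn45s moved no count by over 1.5 times. Leaving out 1 library gave 57 to 663 genes, 49 to 388 higher, 8 to 282 lower and 8 to 72 against Control. The higher share of calls was 66.7%, against 55.4% with no filter, 73.3% against a fold of 1.5, 86.0% without RP1 and 52.2% without RP2.

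With the replicate number as a block, 262 genes passed (168 higher, 94 lower, and 17 against Control). The numbers are not stated to mark a shared batch, so they were not taken to pair the samples. Deviations from the group means correlated at r = 0.052 for Normal1 with RP1 and 0.080 for Normal2 with RP2 across genes. The other pairs of the same number were at -0.068 to -0.019. With 2 RP libraries the deviations of RP1 and RP2 mirror each other, so these values cannot decide whether the numbers pair samples.

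Of the alternatives for single named genes, 1346 kept direction and call, 243 lost the call, 34 gained it and 15 turned direction, all 15 in genes that had not passed. Myh1 turned to -0.00235 (CPM of at least 5), -0.014 (limma-voom), -0.011 (replicate block) and -0.14 (Hba-a1 covariate), and over the leave-outs it ran from -0.26 (without RP1) through -0.031 (without Normal2) to 0.23 (without RP2). Foxo1 turned to 0.050 (replicate block) and over the leave-outs ran from -0.31 (without RP1) to 0.059 (without RP2) and 0.087 (without Normal3). Myh2 turned to -0.099 (covariate) and ran from -0.039 (without RP1) to 0.47 (without RP2). Il1b turned to 0.53 with the covariate. Hba-a1, at 2.5e-07 there, is fixed near 0 by being its own covariate, and its turn says nothing. Fbxo30 ran from -0.24 (without Normal3) to 0.042 (without Normal1) and Per1 from -0.46 (without RP1) to 0.092 (without RP2). The cause of the other moves was not tested. Libraries held 9528011 to 12333767 counts, and genes of a few counts, such as Chil3 in RP1, rest on those few.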

Other observations

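Several muscle genes outside the lists were higher in RP-titled than in Normal-titled libraries, and these were chosen after their values were seen. Prkag3, the AMPK regulatory subunit of fast glycolytic muscle, read 27.5, 18.7 and 36.3 CPM in Normal1 to Normal3 and 124 and 101 CPM in RP1 and RP2 (log2 change 2.03, adjusted p = 0.000547 in edgeR). Map2k6, a kinase that activates p38, read 3.42, 4.21 and 5.05 against 17.6 and 20.1 CPM (log2 change 2.15, adjusted p = 0.000528). Myoz3, a Z-disc protein of fast fibres, and Ky, a muscle maintenance protein, had log2 changes of 1.44 and 1.37 (adjusted p = 0.00192 and 0.00218). No value of these 4 genes overlapped between the groups, and all 4 passed under the 20 alternatives run.

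Among single genes picked in the same way, Stac3 and Jph2, known for roles in excitation-contraction coupling, had log2 changes of 0.85 and 0.86 (adjusted p = 0.0206 and 0.0281 in edgeR). Camk2a, a calcium-dependent kinase, had a log2 change of 1.06 (adjusted p = 0.00997). Stac3 and Camk2a did not pass without Normal2 or without RP1, and Jph2 not without Normal2, Control1, Control3, RP1 or RP2. Gamt, of creatine synthesis, read 5.13, 4.12 and 1.26 CPM in the Normal libraries and 19.3 and 11.8 CPM in the RP libraries (log2 change 2.14, adjusted p = 0.00997), and did not pass without RP1. Nmrk2, of NAD synthesis in muscle, was higher in RP (196 and 422 CPM) than in both the Normal-titled (141, 63.1 and 64.6 CPM) and, for RP2 only, the Control-titled libraries (215, 134 and 179.5 CPM), with a log2 change of 1.78 against Normal (adjusted p = 0.0198). It did not pass without Normal2 or without RP2.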
